A study of Mus musculus with 7 samples.

Results

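Heart cells of the last days before birth (late fetal stages) were compared with heart cells of the first days after birth (neonatal stages) in wild type mice of the CD1 and C57BL/6 strains. Cells were chosen by their stage label: E16.5, E17.5 and E18 for CD1 or E16.5, E17.5 and E18.5 for C57BL/6 on the fetal side, and P1, P2 and P3 on the neonatal side, leaving out cells that the authors had marked for exclusion. The choice used no measured value. It gave 19472 of the 52881 cells of the wild type tables, of which 6600 were late fetal and 3680 neonatal CD1 cells, and 4328 were late fetal and 4864 neonatal C57BL/6 cells. A further 1665 CD1 cells of P0, the day of birth, are given as values beside the comparison.

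The study profiled untreated mouse hearts from early embryo to neonate by droplet single cell RNA-seq. Each heart was cut into its chambers, the left and right atria (LA and RA) and the left and right ventricles (LV and RV), and the same chamber of several hearts was pooled into 1 sample. Samples were stained with a lipid-anchored DNA barcode (MULTI-seq), so that many samples could share a droplet run and be told apart afterwards. The mice carried no transgene and received no treatment. Around birth, 4 experiments hold cells. The CD1 experiment E9.5_P3 holds E16.5, E17.5, P0, P1, P2 and P3, loaded in 5 wells. The CD1 experiment E18_P1 holds E18 and P1 in 1 well. The C57BL/6 experiment E10.5_P4 holds E16.5, E17.5, E18.5, P1, P2 and P3 in 4 wells. The CD1 experiment P2_P9 holds P2 and no late fetal stage, so its P2 is given as a value only. The strains were never in the same pool, so strain and experiment cannot be told apart.

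The 52 samples of the compared stages held 28 to 2091 cells (median 245), with median UMI counts (unique molecular identifiers, a count of captured RNA molecules) of 5569.5 to 22613 per cell and medians of 2208 to 4194 detected genes. All cells had passed the authors' limits of at least 2000 UMIs, 1000 to 8000 genes and at most 30% mitochondrial UMIs, so cells beyond these limits were not analysed here. Of 55 pairs of wells, 28 shared a droplet barcode, with 0 to 4 shared barcodes in a pair and 51 in all among 21137 cells. No gene values were used, so the annotation could not be set against its marker genes. Against the chamber labels, 45 of 7174 atrial CMs (0.627%) carried a ventricular label, and 25 of 3676 ventricular CMs (0.680%) carried an atrial label at all stages other than the CD1 P2 stages.

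P2 stood apart from the other CD1 stages in 2 ways. In E9.5_P3 the LA sample of P2 took 141 of its 161 cells (87.6%, exact 95% interval 81.5 to 92.2%, which covers counting error only) from the well with the most cells, against 2750 of 6553 (42.0%) in the other 23 samples. The next highest sample, the RV of P1, had 69.4%. Of the 35 ventricular CMs (cardiomyocytes) of that P2 stage, 26 (74.3%) carried the LA label, and in P2_P9 68 of the 77 ventricular CMs of P2 (88.3%) carried an LA or RA label. At P3 the same share was 7.41% of 54 cells in E9.5_P3 and 10.7% of 28 cells in C57BL/6. C57BL/6 P2 held 3 ventricular CMs in all, too few for a median. The mitochondrial share of CMs, the ribosomal share of ventricular CMs and the immune share are therefore also given without that LA sample. So are the numbers of calls for UMIs, genes, mitochondrial share and CM shares. Other values that rest on P2 are given with it only.

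**Figure D1:**
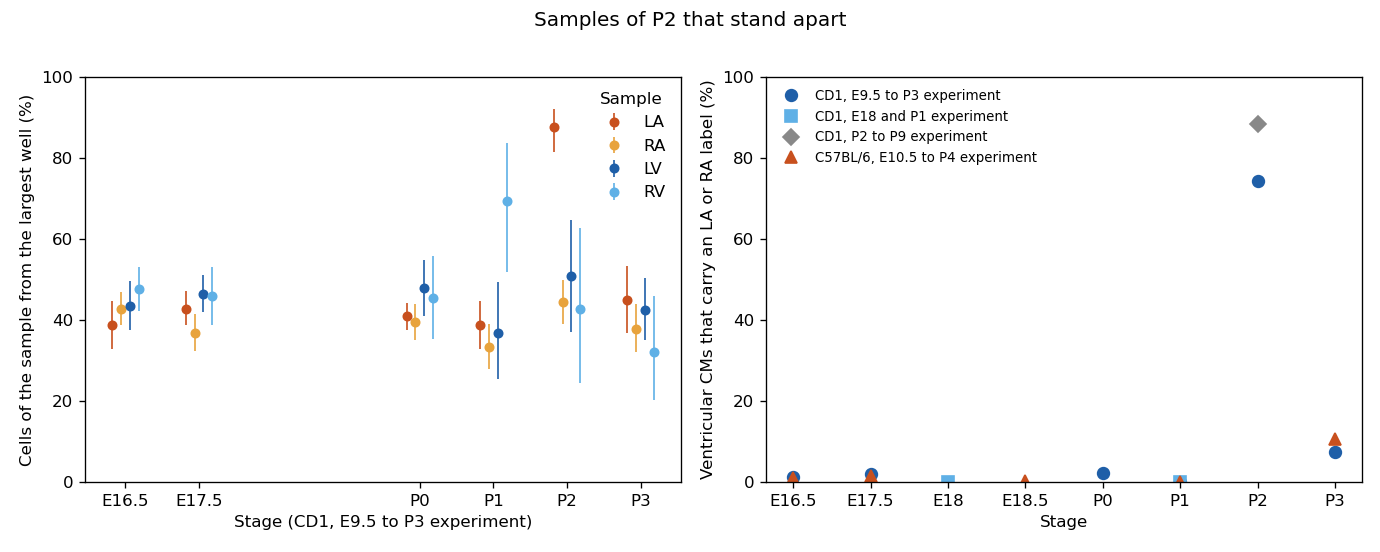
Left, share of each sample's cells (%) that came from the largest well of the CD1 E9.5_P3 experiment, by stage and chamber, with exact 95% intervals; right, share of ventricular CMs (%) that carried an atrial chamber label, by stage and experiment, for stages with at least 20 ventricular CMs. The LA sample of P2 lies at 87.6%, and the P2 stages of both CD1 experiments lie at 74.3 and 88.3%.

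Birth changes the load and the oxygen supply of the heart. Fetal CMs live at low oxygen, rely largely on glycolysis and still divide, while CMs after birth turn to the oxidation of fatty acids in mitochondria, build more contractile protein and leave the cell cycle. The mitochondrial genome codes for subunits of the respiratory chain and for mitochondrial RNAs, so the share of a cell's UMIs that lie on mitochondrial genes is a measure of these transcripts relative to all others. In single cell data the same share is also used as a sign of damaged cells. Non-myocytes are the endothelial cells (ECs) of the endocardium and of the coronary vessels, the epicardial cells of the outer surface, fibroblast-like cells, which make matrix, mural cells (pericytes and smooth muscle cells, SMCs) around vessels, immune cells and blood cells.

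A stage within an experiment was the unit, since each stage and chamber was 1 pool and cells of a pool are not replicates. The wells of an experiment repeat the same pools, so they are not replicates either. With 2 late fetal and 3 neonatal stages in E9.5_P3, 1 and 1 in E18_P1, and 3 and 3 in E10.5_P4, stage labels were permuted within experiments. This two-sided exact permutation test can give no p below 0.005. P-values were adjusted by Benjamini-Hochberg within each family of measures, at a threshold of 0.05. In a family of 16 or more tests, a single test at the smallest p cannot pass unless other tests of the family also have low p-values. The p-values measure the spread between stages, each of which is also a day of age. Postnatal hearts were also dissociated with harder pipetting, which cannot be told apart from the neonatal period in any measure. Single experiments can go no lower than 0.2 (E9.5_P3) or 0.1 (E10.5_P4), and E18_P1 allows no test of its own.

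Atrial CMs, the muscle cells of the atria, gave the largest set of changes. Their mitochondrial share rose, and their UMI count, detected genes and ribosomal share fell. In E9.5_P3 the median atrial CM had 10.2% mitochondrial UMIs at E16.5 and 12.4% at E17.5, and 16.8, 16.503 and 17.0% at P1, P2 and P3. In E18_P1 the medians were 7.12% at E18 and 10.97% at P1. In C57BL/6 they were 7.99, 9.74 and 9.51% at E16.5, E17.5 and E18.5, and 12.1, 14.3 and 14.8% at P1, P2 and P3. Every neonatal stage lay above every late fetal stage of its own experiment. P0 of E9.5_P3, at 15.2%, lay between E17.5 and the neonatal stages, and P2 of P2_P9, which was not part of the test, had 14.9%.

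The lowest neonatal value of E9.5_P3 was thus above its highest late fetal value by more than the spread within either period. Weighted over experiments, the mitochondrial share of atrial CMs was 4.83 percentage points higher in neonates (exact permutation p = 0.005, adjusted p = 0.04 over 24 tests). That adjusted p rests on 3 atrial measures of the family sharing the smallest p: mitochondrial share, UMI count and detected genes. The period means were 9.08% ± 0.947 (SD, n = 3 stages) and 13.7% ± 1.41 (SD, n = 3) in C57BL/6, and 11.3% ± 1.51 (SD, n = 2) and 16.8% ± 0.232 (SD, n = 3) in E9.5_P3. Both atria showed it: the difference was positive in 6 of 6 contrasts of 1 atrium within 1 experiment, from 2.57 to 6.57 points. It was also positive in each of the 5 wells of E9.5_P3 (5.26 to 7.55 points) and the 4 wells of E10.5_P4 (4.19 to 5.18 points). These wells repeat the same pools and are not further evidence on the period. The smallest contrast, the LA of E9.5_P3, holds the P2 sample that stands apart, in which 14 atrial CMs had a median of 10.6% against 17.1% for 165 atrial CMs of the RA of the same stage. Without that sample the difference was 4.91 points (exact permutation test, adjusted p = 0.04). Taken relative to the median of the other types of the same stage, it was 5.47 points (exact permutation p = 0.005, adjusted p = 0.04 over the 32 tests added after the data were seen). Without E10.5_P4, E18_P1 or E9.5_P3 the difference was 4.97, 5.01 or 4.46 points. The call was then lost, with an adjusted p of 0.343, 0.08 or 0.3 in the exact permutation test. The smallest p of this test rises when stages are taken away, and without E10.5_P4 it lies above the threshold whatever the values.

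**Figure D2:**
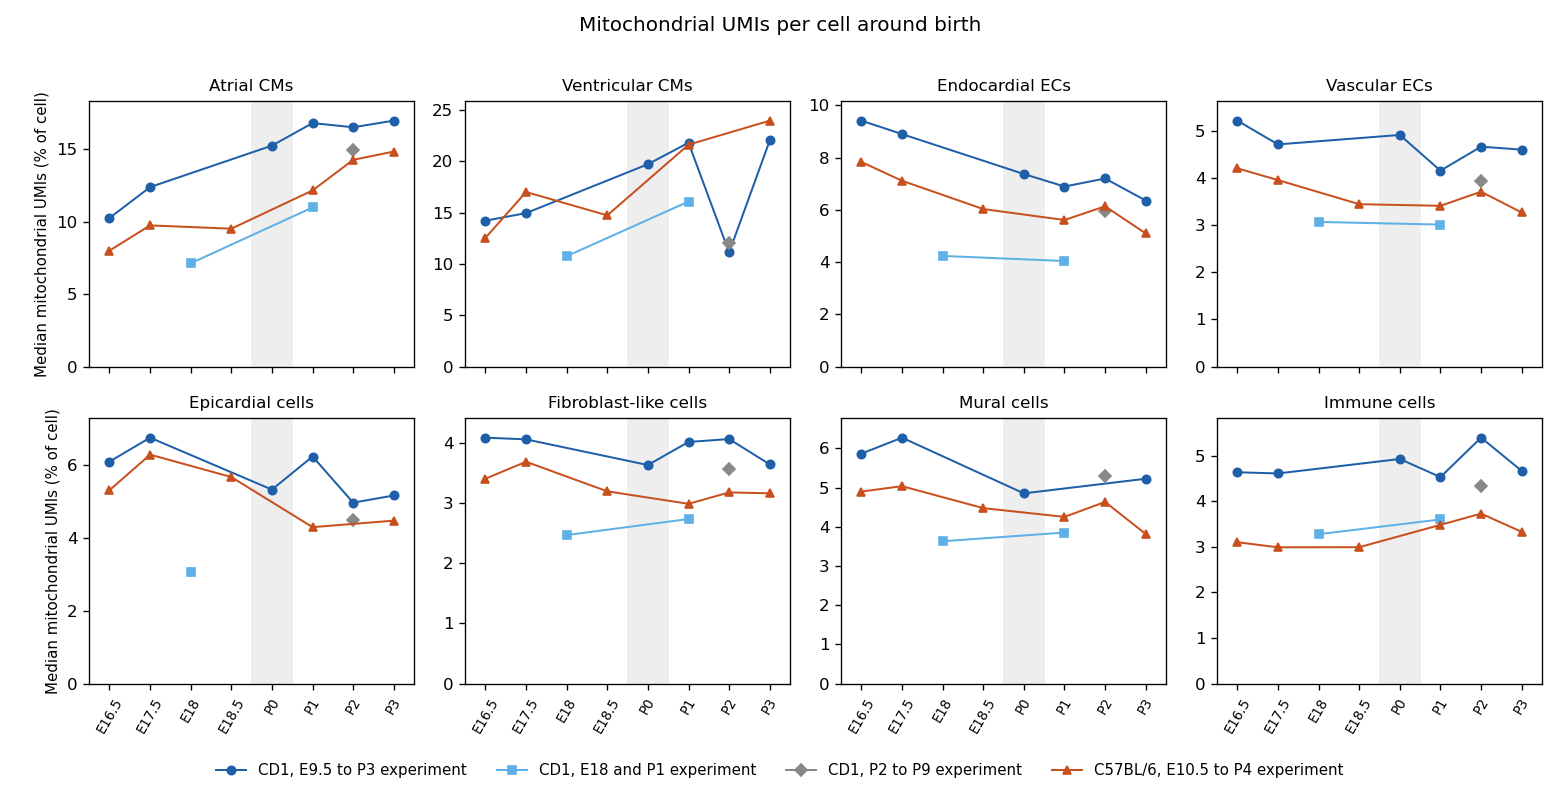
Median share of mitochondrial UMIs per cell (%) for 8 cell types at each stage, with 1 line for each experiment, P0 on grey and the P2 stage of P2_P9 as a diamond; medians are shown for at least 20 cells, and each panel has its own axis from 0. Atrial CMs lie at 7.12 to 12.4% before birth and 10.97 to 17.0% after it in the compared stages, while endocardial ECs go from 4.24 to 9.41% to 4.04 to 7.20%.

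The depth of atrial CMs moved the other way. Their median UMI counts were 17400 and 16643 before birth and 16042, 11856 and 13479 at P1, P2 and P3 in E9.5_P3. In E18_P1 they were 25969 at E18 and 16173.5 at P1. In C57BL/6 they were 21570, 22182 and 23910 before birth and 19384.5, 15546 and 14083.5 after it. Again no stages of the 2 periods overlapped within an experiment, and the count fell by 0.45 on the log2 scale, which is a change of -26.7% (exact permutation p = 0.005, adjusted p = 0.04). Contrasts within 1 atrium were lower in 6 of 6 cases, by -0.13 to -0.74 on the log2 scale. Detected genes fell by 0.24 on the log2 scale (exact permutation test, adjusted p = 0.04), from late fetal medians of 3647 to 4558 genes to neonatal medians of 3111 to 3771.5. Library depth differed widely between experiments, and atrial CMs of P2 in P2_P9 had 32348.5 UMIs, so levels are comparable only within an experiment.

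Because a share depends on both its parts, the UMIs were split into mitochondrial and all other UMIs, a split chosen after the data were seen. Mitochondrial UMIs per atrial CM had late fetal medians of 1781 to 2359 and neonatal medians of 1975 to 2811 over the compared stages. The difference of 0.17 on the log2 scale did not pass the test (exact permutation p = 0.115, adjusted p = 0.175). All other UMIs went from medians of 14624 to 24104.5 to medians of 9794 to 16924, and fell by 0.53 on the log2 scale, a change of -30.9% (exact permutation p = 0.005, adjusted p = 0.04). The higher mitochondrial share of neonatal atrial CMs thus came with a lower count of other UMIs, while a change in the count of mitochondrial UMIs was not detected with these stages. Neither count is corrected for depth. Fewer RNA molecules per cell and poorer capture in a pool, which would lower both counts, cannot be told apart here.

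The ribosomal share is the percent of UMIs on genes of ribosomal proteins, the parts of the machine that makes protein. In atrial CMs it was 11.46 and 9.42% at E16.5 and E17.5 and 7.49, 6.67 and 7.31% at P1, P2 and P3 of E9.5_P3. The values were 11.04% at E18 and 8.85% at P1 of E18_P1. In C57BL/6 they were 15.4, 10.8 and 10.504% before birth and 9.52, 10.0 and 8.16% after it. The share fell by 2.99 points (exact permutation p = 0.005, adjusted p = 0.04 over 16 tests), and by 2.78 points when only the UMIs that are not mitochondrial were counted (adjusted p = 0.04). The doublet score of atrial CMs, a score of how much a cell looks like a mixture of several cells, also fell, by 0.083 (exact permutation test, adjusted p = 0.04). Score and UMI count of atrial CMs both fell, and the relation between them was not tested. The part of the score in the other changes was not tested beyond leaving out the 10% of cells with the highest score. After that, the mitochondrial difference was 4.78 points (exact permutation test, adjusted p = 0.04).

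**Figure D3:**
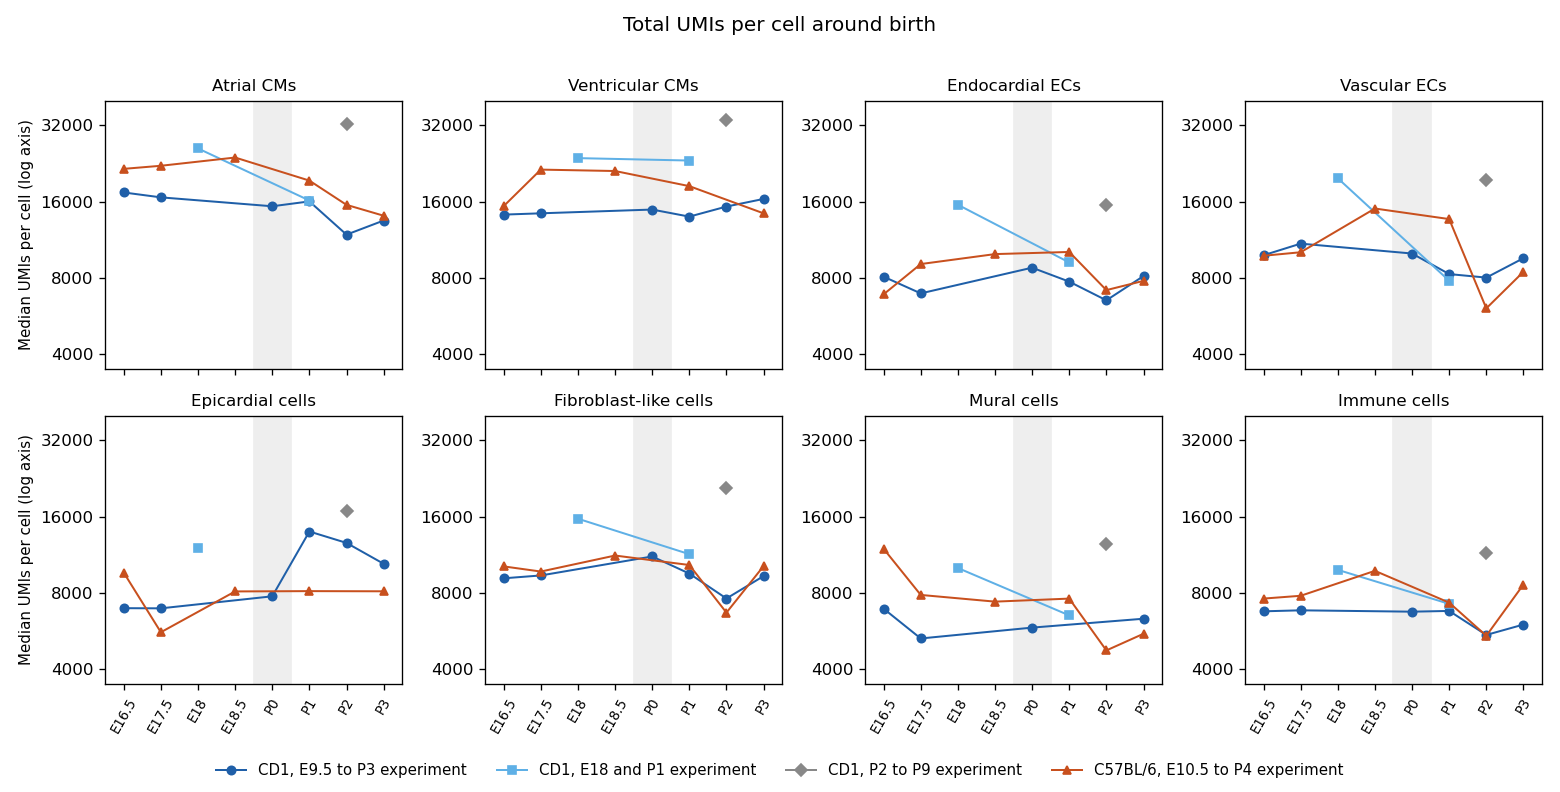
Median total UMIs per cell (log axis) for 8 cell types at each stage, with 1 line for each experiment, P0 on grey and P2 of P2_P9 as a diamond. Atrial CMs go from medians of 16643 to 25969 before birth to 11856 to 19384.5 after it, ventricular CMs from 14226 to 23781 to 13967 to 23265. The P2_P9 diamond of atrial CMs lies at 32348.5.

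Ventricular CMs, the muscle cells that pump into the arteries, had the highest mitochondrial shares of all types at every stage with a median other than the CD1 P2 stages. In E9.5_P3 the medians were 14.2 and 14.9% at E16.5 and E17.5, 19.7% at P0, and 21.8, 11.1 and 22.0% at P1, P2 and P3. In E18_P1 they were 10.8% at E18 and 16.1% at P1. In C57BL/6 they were 12.5, 17.0 and 14.7% before birth and 21.6 and 24.0% at P1 and P3. All neonatal stages but P2 of E9.5_P3 lay above the late fetal stages of their experiment. The difference was 5.78 points and did not pass the adjusted threshold (exact permutation p = 0.03, smallest possible 0.01, adjusted p = 0.12). C57BL/6 P2 did not enter it.

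The P2 value rests on the sample that stands apart. The 26 ventricular CMs with the LA label had a median of 10.49% mitochondrial and 13.4% ribosomal UMIs, and the 9 with an LV or RV label had 21.1 and 8.56%. In P2_P9 the 68 ventricular CMs with an atrial label had 11.8% and the 9 others 15.0%. Without the P2 sample of the LA the difference was 7.27 points, and with ventricular CMs of the LV and RV only it was 7.42 points. Both gave an exact permutation p of 0.0167, the smallest possible for the 11 stages then left, and an adjusted p of 0.08. Within 1 ventricle and 1 experiment the difference was positive in 3 of 3 contrasts, from 5.47 to 8.11 points. It was positive in 9 of 9 wells, which repeat the same pools.

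The share of ventricular CMs near the authors' limit, above 25% mitochondrial, was 2.26 to 10.2% in the late fetal stages and 8.57 to 35.7% in the neonatal stages. At C57BL/6 P3 it was 35.7% of 28 cells and at P3 of E9.5_P3 25.9% of 54 cells. Cells above 30% had been removed, so the neonatal medians describe the cells under that limit. The UMI count of ventricular CMs differed by -0.06 on the log2 scale (exact permutation p = 0.5), with medians of 14226 to 23781 before birth and 13967 to 23265 after it. Their ribosomal share differed by -2.41 points (exact permutation p = 0.07, adjusted p = 0.16), and without the P2 sample of the LA by -3.16 points (adjusted p = 0.0667).

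The authors also clustered the cells of each type. Which of these sub-clusters held most cells before and after birth was read in E9.5_P3 for CD1 and in E10.5_P4 for C57BL/6, so values there are a description, and clusters were built from the cells they describe. The leading sub-cluster differed between the periods in 6 of 8 types in each strain. It was the same for epicardial cells in both strains, for immune cells in CD1 and for mural cells in C57BL/6. In ventricular CMs of E9.5_P3 sub-cluster 0 held 54.0 and 51.5% of cells at E16.5 and E17.5, 16.4% at P0, and 3.23, 0 and 0% at P1, P2 and P3. Sub-cluster 12 held 0.783 and 6.15% before birth, 59.1% at P0 and 83.9, 20 and 66.7% after it.

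The E18_P1 cells had no part in choosing which sub-clusters to read. They were among the cells that the authors clustered, so they are not an independent check. There, sub-cluster 0 held 1284 of 2125 ventricular CMs at E18 (60.4%, exact 95% interval 58.3 to 62.5%) and 1 of 60 at P1 (1.67%, 0.0422 to 8.94%). Sub-cluster 12 held 1 of 2125 at E18 and 45 of 60 at P1 (75%, 62.1 to 85.3%). With 1 stage on each side no test over stages was possible. At P2 of P2_P9, where most ventricular CMs carried an atrial label, sub-cluster 12 held 0 of 77, which is a share of up to 4.68% by the exact interval, and sub-cluster 0 held 19.5%. In C57BL/6, sub-cluster 13 held 0, 1.39 and 0.365% of ventricular CMs before birth, and 87.9 and 67.9% at P1 and P3.

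For atrial CMs, sub-cluster 4 of CD1 held 0.180 and 0.614% before birth, 0.674% at P0, and 39.2, 80.7 and 53.9% at P1, P2 and P3. In E18_P1 it held 0.917% at E18 and 43.1% at P1 (25 of 58 cells, exact 95% interval 30.2 to 56.8%). P0 atrial CMs thus lay with the late fetal stages in this sub-cluster, whereas P0 ventricular CMs lay nearer the neonatal ones in theirs. Sub-cluster 0, which led before birth in E9.5_P3, showed no such split. It held 6.28 and 40.1% before birth and 35.7, 1.66 and 13.5% after it, which overlap, and in E18_P1 it went the other way, from 9 of 218 cells at E18 (4.13%) to 21 of 58 at P1 (36.2%). The C57BL/6 atrial CMs were spread less evenly, since sub-cluster 1 held 31.4 and 84.1% at P1 and P2 but 3.40% at P3, against 0.437 to 0.983% before birth. Endocardial ECs of C57BL/6 had 1.92, 5.77 and 6.07% of cells in sub-cluster 1 before birth and 39.5, 57.1 and 64.9% after it. In CD1 the gap was smaller: sub-cluster 0 held 10.9 and 13.1% before birth, 56.4% at P0 and 18.8, 51.4 and 24.7% after it in E9.5_P3, and 15.4 and 32.3% at E18 and P1 of E18_P1.

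Vascular ECs of C57BL/6 had 0, 0.893 and 0% in sub-cluster 3 before birth and 34.2, 42.7 and 16.46% after it. In CD1 vascular ECs the periods overlapped in both leading sub-clusters. In E9.5_P3 sub-cluster 1 held 36.8 and 26.9% before birth and 37.9, 17.6 and 41.9% after it, and sub-cluster 0 held 35.53 and 32.1% before birth and 20.7, 20.6 and 35.48% after it.

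Endocardial ECs, which line the chambers, had a mitochondrial difference of the opposite sign to that of the CMs. Their median mitochondrial share was 9.41 and 8.90% at E16.5 and E17.5, 7.37% at P0 and 6.89, 7.20 and 6.36% at P1, P2 and P3 of E9.5_P3. It was 4.24% at E18 and 4.04% at P1 of E18_P1, and in C57BL/6 7.83, 7.11 and 6.03% before birth and 5.61, 6.14 and 5.10% after it. In E9.5_P3 the periods did not overlap, while in C57BL/6 P2 lay above E18.5. The difference of -1.55 points came just short of the adjusted threshold (exact permutation p = 0.01, adjusted p = 0.06). It was negative in 8 of 9 contrasts within a chamber, the exception being the RA of E18_P1 at 0.112 points. It was also negative in all 9 wells, which repeat the same pools.

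Counted as mitochondrial UMIs per cell, endocardial ECs went from medians of 634 to 744 before birth to 390.5 to 591 after it. This count, which is not corrected for depth, fell by 0.51 on the log2 scale, a change of -29.8% (exact permutation p = 0.005, adjusted p = 0.04 over the 32 added tests). That adjusted p rests on 4 tests of the added family sharing the smallest p, the others all being of atrial CMs. Total UMIs of endocardial ECs differed by -0.14 on the log2 scale (exact permutation p = 0.425), and their other UMIs by -0.10 (p = 0.585, exact permutation). So for endocardial ECs the mitochondrial count passed the test and the other count did not. The endocardial difference passed the test for the share itself when chambers were given equal weight (-1.39 points, exact permutation test, adjusted p = 0.03) and when means replaced medians (-1.98 points, adjusted p = 0.03).

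Vascular ECs, the lining of the coronary vessels, had median mitochondrial shares of 3.07 to 5.22% before birth and 3.01 to 4.67% after it, a difference of -0.38 points (exact permutation p = 0.035, adjusted p = 0.12). Their UMI count was 9830.5 and 10925 before birth and 8282, 8021 and 9569 after it in E9.5_P3. It went from 19803.5 at E18 to 7791 at P1 in E18_P1, and in C57BL/6 from 9784, 10102 and 15036 to 13660, 6063.5 and 8456, so that stages overlapped there. The difference was -0.48 on the log2 scale (exact permutation p = 0.09, adjusted p = 0.154).

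Epicardial cells are the outer layer that gives rise to fibroblasts and mural cells in the fetus. Weighted over experiments, they were the only type with a positive UMI difference. In E9.5_P3 their medians were 6951.5 and 6941 before birth, 7743.5 at P0 and 13963, 12587 and 10410.5 after it, from 25 to 28 cells at each neonatal stage. In C57BL/6 they were 9603, 5584.5 and 8095 before birth and 8118 and 8105 at P1 and P3, with no separation. The difference over both was 0.46 on the log2 scale (exact permutation p = 0.08, adjusted p = 0.154), with E18_P1 left out because its P1 held 17 epicardial cells. Their mitochondrial share differed by -1.17 points (exact permutation p = 0.04, adjusted p = 0.12).

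Fibroblast-like cells differed little in mitochondrial share, at 2.47 to 4.08% before birth and 2.73 to 4.06% after it (-0.17 points, exact permutation p = 0.16). Their UMI count differed by -0.20 on the log2 scale (exact permutation p = 0.18) and their ribosomal share by -1.99 points (p = 0.035, adjusted p = 0.112). Mural cells had 3.63 to 6.27% mitochondrial UMIs before birth and 3.82 to 5.22% after it (-0.49 points, exact permutation p = 0.0667). Their UMI count differed by -0.44 on the log2 scale (exact permutation p = 0.0833, adjusted p = 0.154), with the P1 and P2 of E9.5_P3 left out for having under 20 cells.

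In E18_P1 alone, 5 of 7 types, both CM types included, had a higher mitochondrial share at P1. Weighted over experiments, immune cells, mostly macrophages, were the only non-myocytes with a positive mitochondrial difference. Their medians were 4.64 and 4.61% before birth and 4.53, 5.40 and 4.67% after it in E9.5_P3, 3.28 and 3.60% in E18_P1, and 3.103, 2.99 and 2.99% against 3.48, 3.73 and 3.33% in C57BL/6. Only in C57BL/6, of the experiments with several stages, did the periods not overlap. The difference of 0.37 points did not pass the adjusted threshold (exact permutation p = 0.02, adjusted p = 0.096), and its UMI difference was -0.25 on the log2 scale (p = 0.065). Blood cells numbered 0 to 17 at each stage, too few for a median.

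Beyond atrial CMs, none of the other 7 types measured passed the test for UMIs, genes or mitochondrial share. In E18_P1, all 7 types with enough cells had fewer UMIs at P1. Ventricular CMs differed by -0.03 on the log2 scale, and the others by -0.45 in immune cells to -1.35 in vascular ECs. In E9.5_P3 5 of 8 types were lower and in C57BL/6 7 of 8. When each type was taken relative to the other types of its stage, 0 of 8 passed the test (smallest adjusted p = 0.187, exact permutation; 1 had an unadjusted p under 0.05). Relative to the other types, atrial CMs then differed by -0.27 on the log2 scale (exact permutation p = 0.07), vascular ECs by -0.44 (p = 0.045) and epicardial cells by 0.57 (p = 0.06). The atrial value was not shared by all experiments: it was -0.52 in E9.5_P3, -0.22 in C57BL/6, where P2 lay above all late fetal stages, and 0.19 in E18_P1. The lower UMI count of atrial CMs thus passed the test between the stages of an experiment, but not relative to the other types of the same stage. Fewer RNA molecules per cell and poorer capture in a pool cannot be told apart.

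**Figure D4:**
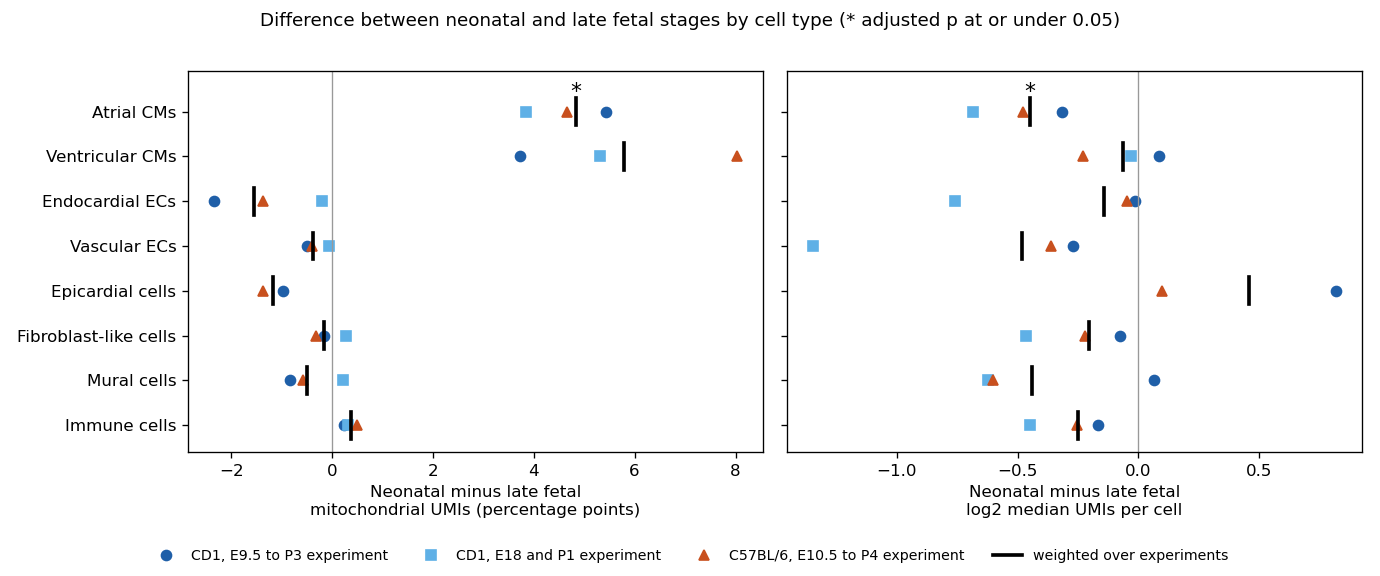
Neonatal minus late fetal difference of 8 cell types in mitochondrial share (left, percentage points) and in log2 median UMIs per cell (right), with 1 symbol for each experiment and a bar for the value weighted over experiments; an asterisk marks an adjusted p at or under 0.05. On the left, both CM types lie at 3.73 points or above, and among the non-myocytes immune cells alone have a weighted mitochondrial value above 0.

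The share of CMs among all recovered cells fell. Averaged over chambers, CMs made up 62.6 and 49.2% at E16.5 and E17.5, 53.7% at P0, and 39.3, 24.6 and 31.2% at P1, P2 and P3 of E9.5_P3. In E18_P1 the share was 50.3% at E18 and 17.2% at P1. In C57BL/6 it was 45.1, 33.7 and 45.7% before birth and 40.7, 23.8 and 23.0% after it. The difference was -20.02 points (exact permutation p = 0.01, adjusted p = 0.015 over 3 tests). The call was lost with the cells of all chambers pooled (-17.3 points, exact permutation test, adjusted p = 0.055), without E10.5_P4 (-26.8 points, adjusted p = 0.1) and without E9.5_P3 (-17.48 points, adjusted p = 0.15). Without E10.5_P4 the smallest possible p lies above the threshold, so no call could be kept whatever the values. Without E9.5_P3 a call could be kept only if all 3 tests reached the smallest p. P1 of C57BL/6, at 40.7%, lay above E17.5, and all other neonatal stages lay below the late fetal ones of their experiment.

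Ventricular and atrial samples were then taken apart. In LV and RV samples the CM share was 62.4 and 34.4% before birth and 26.9, 11.8 and 19.3% after it in E9.5_P3, 73.9 and 16.2% in E18_P1, and 33.6, 17.53 and 36.0% against 12.7, 3.25 and 11.03% in C57BL/6. No stages overlapped within an experiment, and the difference was -29.3 points (exact permutation p = 0.005, adjusted p = 0.015). In the atria it was -10.7 points (exact permutation p = 0.075, adjusted p = 0.075; 0.045 with equal weight for experiments), with C57BL/6 P1 at 68.8% above all late fetal stages of that strain. These are shares of the cells that were recovered and passed the authors' filter, and fewer CMs cannot be told apart from CMs that were lost more often. Per the study's methods, only postnatal ventricles passed through an additional strainer, and neonatal ventricular CMs can outgrow the droplet device. This handling coincides with the neonatal side of the comparison, so its part and that of age cannot be told apart. Ventricular CMs near the mitochondrial limit were 2.26 to 10.2% of their type before birth and 8.57 to 35.7% after it. The relation of this part to the CM share was not tested. With at least 4000 UMIs and at most 20% mitochondrial UMIs, the ventricular difference was -34.1 points.

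Among non-myocytes, 0 of 7 types passed the test for a change in share (smallest adjusted p = 0.28, exact permutation; 1 of 7 had an unadjusted p of 0.05 and the others more). Each share was taken in a chamber and averaged over chambers, with 22 to 736 non-myocytes in a sample. The smallest p was that of epicardial cells. They made up 12.9 and 9.01% at E16.5 and E17.5, 10.53% at P0 and 5.09, 4.20 and 6.28% at P1, P2 and P3 of E9.5_P3, and 6.48 and 3.73% at E18 and P1 of E18_P1. In C57BL/6 they made up 11.51, 8.12 and 3.02% before birth and 9.36, 1.51 and 3.61% after it, which overlap. The difference was -3.87 points (exact permutation p = 0.05, adjusted p = 0.28), with lower values in 9 of 12 contrasts within a chamber. Contrasts of the LA and RA ran from -14.8 to -3.00 points, and those of the LV and RV from -0.926 to 1.86 points.

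Immune cells had the largest positive difference. Their share was 11.6 and 17.0% before birth and 16.3, 11.2 and 18.8% after it in E9.5_P3, 4.20 and 8.43% in E18_P1, and 10.6, 9.82 and 6.34% against 10.7, 21.7 and 15.8% in C57BL/6. The difference was 4.44 points (exact permutation p = 0.08, adjusted p = 0.28), higher in 9 of 12 contrasts within a chamber, and 4.77 points without the LA sample of P2 (p = 0.03, adjusted p = 0.175). In C57BL/6 alone it was 7.16 points with no overlap (exact permutation p = 0.1, the smallest possible there), though P1 at 10.7% was next to E16.5 at 10.6%. Macrophages, the resident phagocytes, numbered 167 of 2296 late fetal and 284 of 2339 neonatal non-myocytes in C57BL/6, and neutrophils, which respond early to infection and injury, 26 and 50. In E9.5_P3 macrophages numbered 180 of 1314 and 157 of 1099, and in E18_P1 46 of 1092 and 31 of 460.

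Macrophages differed by 2.52 points of non-myocytes (exact permutation p = 0.14), with 4.498 points in C57BL/6, 3.25 in E18_P1 and -0.257 in E9.5_P3. The remaining immune cells differed by 1.93 points (exact permutation p = 0.03, adjusted p = 0.12 over 4 tests of sub-types). Rare lymphoid cells were few, with B cells at 1 of 1092 non-myocytes at E18 and 6 of 460 at P1 of E18_P1, and 0 of 1314 and 3 of 1099 in E9.5_P3. The C57BL/6 annotation named no B cells, T cells or natural killer cells in these stages. Pericytes differed by -1.25 points (exact permutation p = 0.075) and SMCs by 0.80 points (p = 0.185), in opposite directions within a mural share that differed by -0.44 points (p = 0.66).

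**Figure D5:**
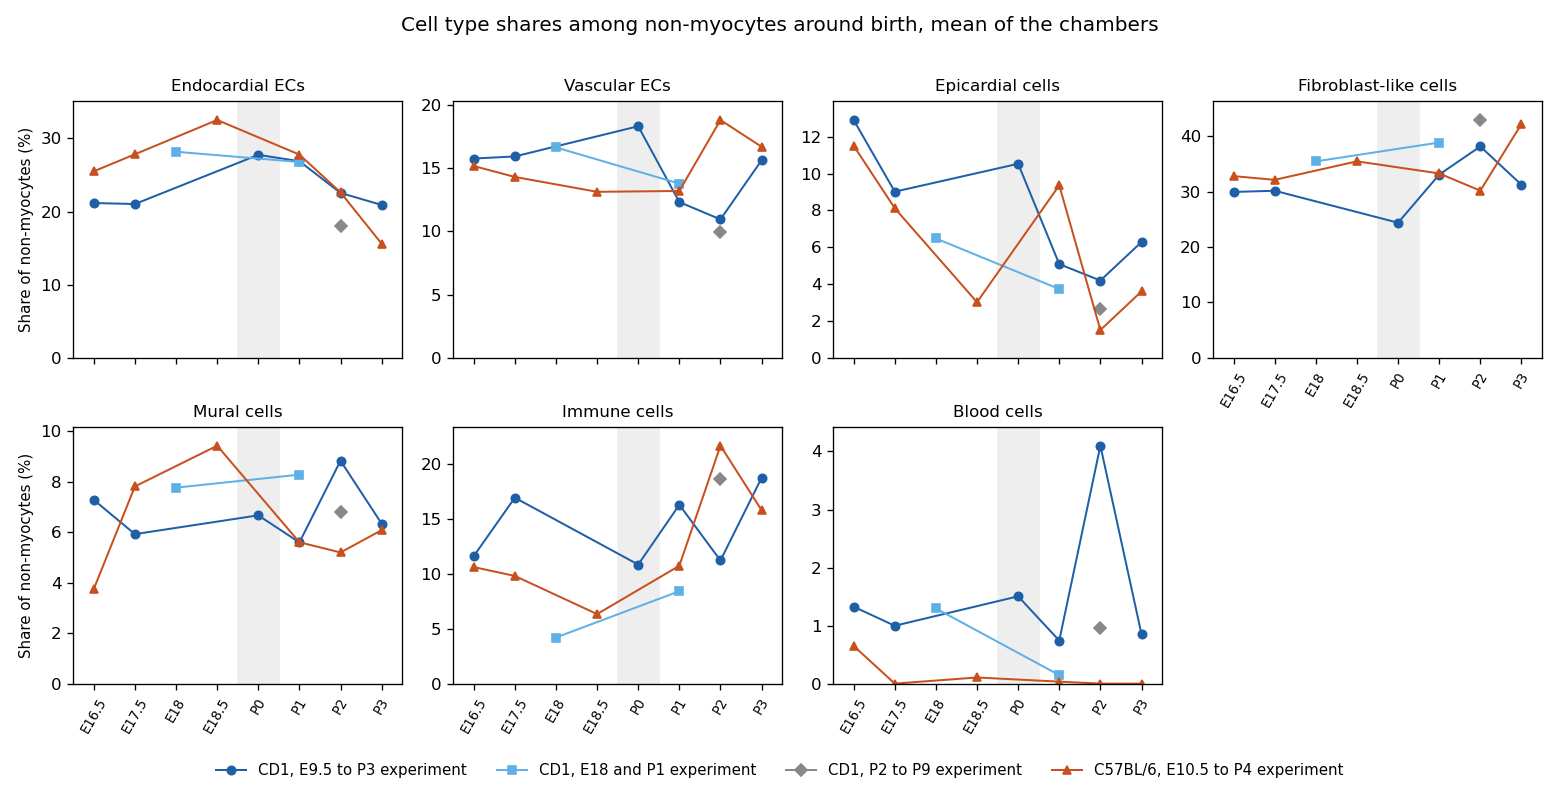
Share of each cell type among non-myocytes (%), as the mean of the chambers, at each stage and experiment, with P0 on grey and P2 of P2_P9 as a diamond. Epicardial cells go from 12.9 to 6.28% between E16.5 and P3 of the CD1 E9.5_P3 experiment, and blood cells reach 4.10% at its P2 against at most 1.504% at its other stages.

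The remaining types had p-values further from the threshold. Fibroblast-like cells made up 29.95 to 35.5% of non-myocytes in the late fetal stages and 30.2 to 42.2% in the neonatal stages (2.89 points, exact permutation p = 0.185). Endocardial ECs made up 21.0 to 32.5% and 15.6 to 27.8% (-2.44 points, exact permutation p = 0.355). The direction of the endocardial share differed between experiments, at -6.61 points in C57BL/6 and 2.35 points in E9.5_P3. Vascular ECs made up 13.1 to 16.6% and 10.9 to 18.8% (-0.57 points, exact permutation p = 0.65). Blood cells made up 0 to 1.33% and 0 to 4.10% (-0.02 points, exact permutation p = 0.82).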

How the data were processed

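Per the labels and the study's methods, the authors aligned reads with Cell Ranger 3.1.0 to GRCm38.p4, assigned each cell to its sample by the MULTI-seq barcode, kept cells with a single barcode, removed doublets within samples, and filtered, clustered and annotated them with Seurat. They deposited tables with 1 line per cell. The UMI and detected gene counts were deposited without normalization. The authors also gave, for every cell, the mitochondrial and ribosomal percent of its UMIs. A deposited hybrid score from scds rates likely doublets. Of 120 columns in the 2 tables used, 96 were not used. No column held a cell cycle phase, so the planned phase shares were not run.

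Members, types and tests were chosen with earlier results of these data known. All 9 annotated types and 4 sub-types are described, and no gene is tested. Medians needed 20 cells of a type and shares 10 non-myocytes in a chamber. Chamber contrasts needed 10 cells and well contrasts 5. Stage differences were weighted over experiments by the product of the numbers of stages of both periods divided by their sum. P was 2 times the smaller tail of up to 400 labelings. On 200 simulated sets the test, taken alone and before adjustment, called 5% with no effect and 99% with an effect of 3 SD. These rates do not describe calls on adjusted p-values within a family, for which no simulation was made. Of cells marked for exclusion, 6 were in these stages. Intervals are exact (Clopper-Pearson) and cover counting error only. Doublets were treated as the authors left them. Alternatives were another treatment of chambers (pooled for shares, given equal weight for medians), equal weight for experiments, at least 50 cells, a stricter filter, cells marked for exclusion kept, the highest doublet scores left out, blood left out of the non-myocytes, shares on a log scale, means, well medians, P1, E18 and E18.5 left out, and each stage or experiment left out. Leaving out the P2 sample of the LA, CMs of matching chambers, the split of UMIs, the ribosomal share of other UMIs and the mitochondrial share relative to other types were added after the data were seen. Scripts ran in Python 3.11.15 (pandas 2.3.3, numpy 2.4.6), with intervals from scipy 1.17.1 and plots from matplotlib 3.10.9.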

Additional observations from a re-analysis of the deposited data

Results flagged for a closer look

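In groups of 4 to 10 samples or stages, the gap between the most extreme value and its neighbour was set against the range of the group (Dixon's test). Of 76 groups tried, 6 held a value that stood apart, and chance gives about 1 in 20.

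The LA sample of P2 in E9.5_P3 took 87.6% of its cells from the largest well, with the next of the 6 LA samples at 45.0%. The blood share of non-myocytes at P2 of E9.5_P3 was 4.10%, from 17 cells, with the next CD1 neonatal stage at 0.956%.

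The other 4 concern P2 of P2_P9, which held the highest UMI counts of CD1 atrial CMs, vascular ECs after birth and fibroblast-like cells. Vascular ECs there had a log2 UMI count of 14.25 (next stage 13.22) and a log2 number of detected genes of 12.14 (next stage 11.61). Their doublet score was 0.252 (next stage 0.0895), and that of fibroblast-like cells 0.392 (next stage 0.125). That stage entered no test.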

How the results depend on the processing

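Of 1010 repeats under other settings, 972 kept the direction and 38 did not. Leaving out the P2 sample of the LA left 3 calls for UMIs, genes and mitochondrial share, and 2 for CM shares. The CM share of ventricular samples holds no LA cells, so this repeat could not change it. The mitochondrial difference of atrial CMs ranged from 4.19 to 5.18 points over 13 settings, and from 4.44 to 5.18 with each stage left out. It lost its adjusted call without E10.5_P4 (4.97), E18_P1 (5.01) or E9.5_P3 (4.46), and in 10 of 13 repeats without a stage (the exceptions were E18.5 and P2 of C57BL/6 and P1 of E9.5_P3), where fewer labelings were possible. The 3 calls became 5 with chambers given equal weight, 6 with at least 4000 UMIs and at most 20% mitochondrial, 0 without each experiment, and 0 to 5 without a stage. Equal weight for chambers and the stricter filter both added a mitochondrial difference of endocardial ECs and immune cells, and the filter also added UMIs of fibroblast-like cells. The 2 calls for CM shares became 1 with chambers pooled, 0 without E10.5_P4 or E9.5_P3, and 2 to 3 without a stage. With chambers pooled, without E10.5_P4 and without E9.5_P3 the share over all chambers differed by -17.3, -26.8 and -17.48 points. Without E10.5_P4 no call was possible, since the smallest p then lies above the threshold. Sub-types had 0 to 1 calls without a stage, the 1 being immune cells other than macrophages without P2 of E9.5_P3.

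Some results changed sign. With chambers pooled, the share differences were 1.04 points for endocardial ECs, -1.70 for fibroblast-like and 0.137 for blood cells, and with chambers given equal weight endocardial detected genes differed by 0.0633 on the log2 scale. With at least 50 cells they were 2.23, -0.266 and 0.392 points, with -0.393 for SMCs, and log2 UMIs were 0.0404 for ventricular CMs and 0.0398 for mural cells, whose genes were 0.0155. The stricter filter gave 0.0902 points for blood cells, and 0.0493 (UMIs) and 0.0670 (genes) on the log2 scale for ventricular CMs. Without E10.5_P4 the shares were 1.24 (endocardial), 0.378 (mural) and 0.182 (blood), and ventricular CMs gave 0.0517 (UMIs) and 0.00598 (genes) on the log2 scale. Without E18_P1 blood gave 0.194 points and endocardial genes 0.0155, and without E9.5_P3 vascular ECs gave 0.808 points. Without P1, E18 and E18.5 the shares were 0.227 (vascular), 0.420 (mural) and 0.495 points (blood). Means in place of medians gave 0.0792 points for the mitochondrial share of mural cells. With each stage left out, the ranges were -1.02 to 0.157 (mural share), -0.433 to 0.194 (blood share), -0.11 to 0.0203 (ventricular log2 UMIs) and -0.0882 to 0.0155 (endocardial log2 genes). The cause of these reversals was not tested.

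With 13 stages and 1 pool for each stage and chamber, the number of stages sets the smallest p. Each cell had at least 2000 UMIs, and types with few cells, such as epicardial and mural cells, have the least certain medians. Age in days and period cannot be told apart.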
